A study of Mus musculus with 15 samples.

Results

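The genes described are 10 growth factors: the epidermal growth factor receptor (EGFR) ligands Hbegf, Areg, Ereg, Tgfa and Egf, the platelet-derived growth factors Pdgfa and Pdgfb, the insulin-like growth factor Igf1, the transforming growth factor Tgfb1, and the divergent TGF-beta family member Gdf15. They were taken by name from a table of raw read counts, and are 10 of its 55385 genes. The libraries were made from bone marrow-derived macrophages (BMDMs) of 6-week-old BALB/c mice, which the study's methods give as female. STAT5fl/fl mice carry floxed Stat5 alleles, and STAT5cKO mice carry the same alleles with Csf1r-iCre, a recombinase driven by the promoter of the macrophage colony-stimulating factor receptor and so expressed across the myeloid lineage. BMDMs of each mouse were kept for 2 h in serum-free DMEM, in 20 ng/mL recombinant mouse GM-CSF (rmGM-CSF), or in medium conditioned by 4T1 cells (4T1 CM), a mouse mammary tumor cell line, and 4T1 CM is a mixture of everything these cells release. There were 2 STAT5fl/fl mice (112 and 113) and 3 STAT5cKO mice (114, 115 and 116), each with 1 library in each medium, which gives 6 groups and 15 libraries; the methods state that a STAT5fl/fl replicate was removed at quality control. The p-values measure the spread between libraries of different mice within the 6 groups. The main fit had no term for the mouse, so libraries of the same mouse in different media counted as independent.

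EGFR ligands are made as membrane-anchored precursors. The protease ADAM17, guided by iRhom proteins such as the product of Rhbdf2, sheds several of them. Shed ligands can act on neighbouring epithelial or stromal cells. PDGF-A and PDGF-B dimers act mainly on fibroblasts and pericytes, IGF-1 acts through a receptor tyrosine kinase related to the insulin receptor, and TGF-beta 1 is secreted in a latent complex that has to be activated outside the cell. Macrophages are known sources of several of these factors in wound repair and in tumors. GM-CSF signals through JAK2 to STAT5 and also through other kinase pathways.

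The libraries held 16016736 to 22883108 counts, and their scaling factors lay between 0.945 and 1.08. Levels are given as CPM, a gene's count relative to the scaled total of its library, and a gene was tested when it exceeded 1 CPM in at least 2 libraries, which 13005 genes did. Stat5a was at 29.0 to 45.1 CPM in STAT5fl/fl libraries and had at most 3 counts in any STAT5cKO library, and Stat5b was at 60.9 to 77.8 CPM against at most 4 counts. All 8 macrophage markers exceeded 1 CPM in every group, and their summed level was higher in STAT5cKO (31146 to 46645 CPM) than in STAT5fl/fl libraries (24653 to 29866 CPM). Lyz2 made up most of that sum, at 17036 to 34471 CPM over all libraries. Cd14 ranged over 801 to 3952 CPM, Csf1r over 3825 to 4204 CPM and Cd68 over 1550 to 2033 CPM. The sum therefore does not show that each marker was higher in STAT5cKO. Of 6 epithelial and 4T1 tumor cell markers only Cdh1 exceeded 1 CPM, while Krt8, Krt18, Krt5 and Krt14 had at most 3 counts in any library. Within each genotype the summed level of that list was highest in 4T1 CM (3.16 to 4.34 CPM in STAT5fl/fl and 1.23 to 2.17 CPM in STAT5cKO). With rmGM-CSF it was 1.18 to 1.43 CPM in STAT5fl/fl and 0 to 0.0491 CPM in STAT5cKO, and in DMEM 0 to 0.137 and 0 to 0.0435 CPM. The 6 fibroblast markers summed to 0.910 to 2.38 CPM in STAT5fl/fl and 2.65 to 8.61 CPM in STAT5cKO libraries, with Lum and Thy1 at 3 counts or fewer. Col1a1 reached 3.35 CPM and Col1a2 4.35 CPM, while Col3a1 reached 0.767 CPM and Dcn 0.568 CPM. The study reports Col1a1 itself as raised in STAT5cKO macrophages. Of the mast cell and basophil markers only Kit exceeded 1 CPM; that list summed to 6.92 to 23.8 CPM in STAT5fl/fl and 1.65 to 7.58 CPM in STAT5cKO libraries, and Cpa3, Mcpt8, Fcer1a and Ms4a2 had at most 3 counts everywhere. Of the 4 endothelial markers only Kdr exceeded 1 CPM. That list summed to 118 to 126 CPM in STAT5fl/fl and 59.1 to 65.7 CPM in STAT5cKO libraries in DMEM, to 54.2 to 62.9 and 56.5 to 70.2 CPM with rmGM-CSF, and to 98.3 to 111 and 72.9 to 96.4 CPM with 4T1 CM, with Tek at 3 counts or fewer. The 4 dendritic cell markers summed to 1.01 to 1.39 CPM in DMEM, 2.15 to 4.11 CPM with rmGM-CSF and 1.02 to 1.8 CPM with 4T1 CM over both genotypes, with Xcr1 at 3 counts or fewer. The part these lists play in the growth factor results was not tested.

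Of the 10 growth factors, 7 passed the filter on low counts. Tgfa, Ereg and Areg did not. Tgfa had 0 counts in all 15 libraries, which allows at most 3 counts in any of them, and Ereg had at most 3. Gene levels were compared per kilobase of exon (RPKM), since the genes differ in length. In STAT5fl/fl BMDMs in DMEM, the order of mean RPKM was Tgfb1 at 59.3, Igf1 at 52.5, Pdgfb at 35.7, Pdgfa at 10.2, Gdf15 at 0.342, Hbegf at 0.195 and Egf at 0.0604, and no neighbours in that order overlapped between their libraries. STAT5fl/fl BMDMs in DMEM thus held TGF-beta 1, IGF-1 and PDGF-B transcripts well above those of any EGFR ligand.

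In DMEM, STAT5cKO BMDMs had Igf1 at 60.8 RPKM above Tgfb1 at 55.4, without overlap, the reverse of their order in STAT5fl/fl. In edgeR's test, however, neither gene was called between genotypes in DMEM (Igf1 log2 0.21, adjusted p = 0.158, Tgfb1 log2 -0.10, adjusted p = 0.364). The order of levels this close also depends on the exon lengths used, 9904 bases for Igf1 and 5042 for Tgfb1. With rmGM-CSF, STAT5fl/fl BMDMs had a mean RPKM of 106 for Tgfb1, 65.6 for Igf1, 47.8 for Pdgfb, 40.4 for Pdgfa and 5.55 for Hbegf, so Hbegf lay above Gdf15 (1.06). With rmGM-CSF, STAT5cKO BMDMs had Igf1 at 73.3 RPKM, Tgfb1 at 66.6, Pdgfb at 66.5 and Pdgfa at 21.8, and there Igf1 overlapped Tgfb1 and Tgfb1 overlapped Pdgfb, as did Gdf15 at 0.971 and Hbegf at 0.768. With 4T1 CM, Pdgfa stood second in STAT5fl/fl BMDMs at 63.1 RPKM, below Tgfb1 at 92.7 and above Pdgfb at 40.0 and Igf1 at 37.9, which overlapped. In STAT5cKO BMDMs with 4T1 CM, Igf1 at 46.7, Pdgfa at 46.5 and Pdgfb at 40.0 RPKM overlapped as neighbours below Tgfb1 at 76.6.

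**Figure D1:**
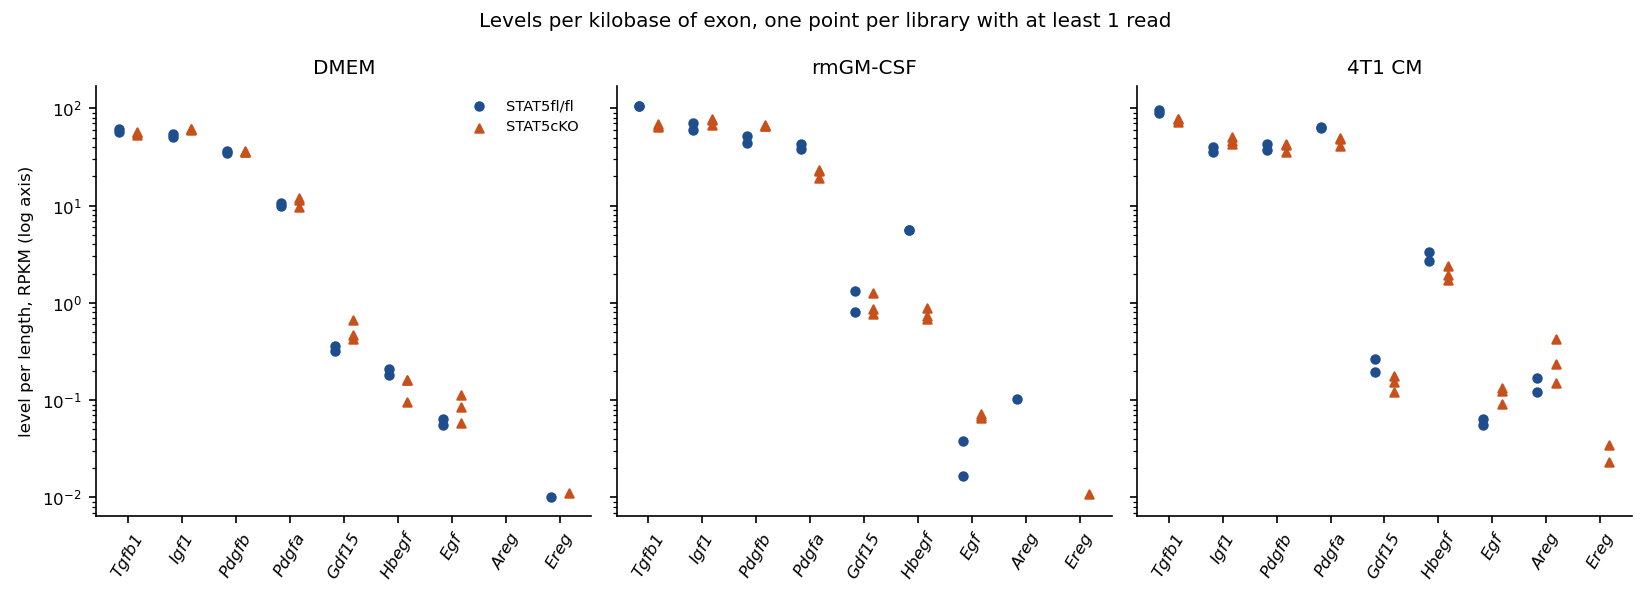
Level per length (RPKM, log axis) of 9 of the growth factor genes in DMEM, rmGM-CSF and 4T1 CM, with 1 point per library that had at least 1 read of the gene (circles STAT5fl/fl, triangles STAT5cKO; Tgfa had none). Tgfb1, Igf1 and Pdgfb lie at the top in DMEM, and Pdgfa and Hbegf lie higher with rmGM-CSF and 4T1 CM.

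The first question was how the media changed these genes in BMDMs with STAT5. With rmGM-CSF, 5 of the 7 tested growth factors rose in STAT5fl/fl BMDMs (Hbegf, Pdgfa, Tgfb1, Gdf15 and Pdgfb) and 0 fell, where 28.5% of all tested genes were called at an adjusted p under 0.01 in edgeR's quasi-likelihood test. Their median log2 fold change was 0.84, against -0.01 over all tested genes. With 4T1 CM, 3 rose (Hbegf, Pdgfa and Tgfb1) and Igf1 fell, where 37.4% of all genes were called. Set against rmGM-CSF in the same mice, 4T1 CM gave a higher level of Pdgfa and lower levels of Hbegf, Igf1 and Gdf15, 4 calls of 7 where 30.5% of all genes were called.

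In STAT5cKO BMDMs, rmGM-CSF raised Hbegf, Pdgfa, Pdgfb and Tgfb1, 4 calls of 7 beside 23.5% of all genes. With 4T1 CM, Hbegf, Pdgfa and Tgfb1 rose and Igf1 and Gdf15 fell against DMEM, beside 37.6% of all genes. In 4T1 CM against rmGM-CSF, 6 of 7 were called, with Hbegf, Pdgfa and Tgfb1 higher and Pdgfb, Igf1 and Gdf15 lower, beside 34.1% of all genes. Within a genotype, both media were compared with the same DMEM libraries.

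**Figure D2:**
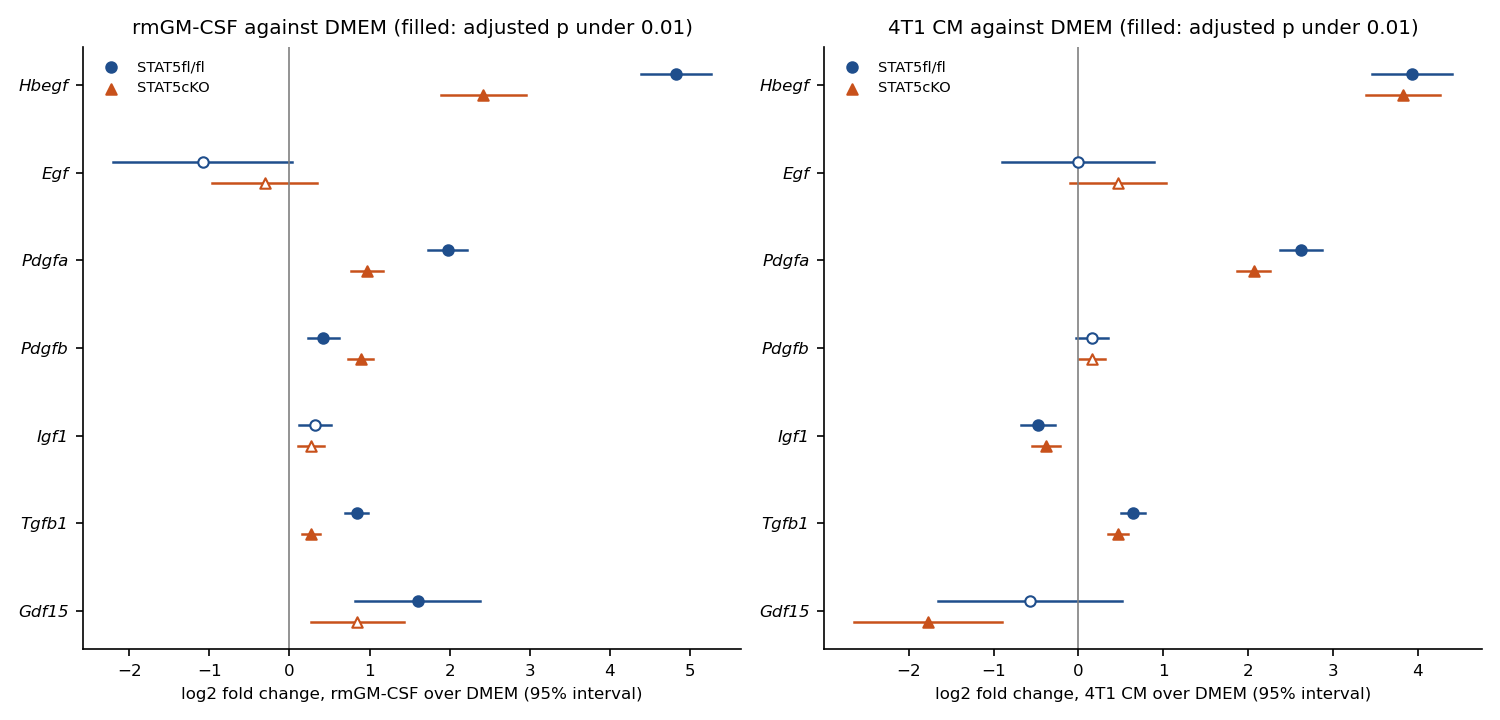
Log2 fold change of the 7 tested growth factors with rmGM-CSF (left) or 4T1 CM (right) over DMEM in STAT5fl/fl (circles) and STAT5cKO (triangles) BMDMs, with 95% intervals and filled points for an adjusted p under 0.01. Hbegf with rmGM-CSF is at 4.82 in STAT5fl/fl and 2.42 in STAT5cKO, and with 4T1 CM at 3.93 and 3.82.

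The second question was what the loss of STAT5 changed in each medium. In DMEM 0 of 7 growth factors were called between genotypes by edgeR, 0 by DESeq2 and 0 by limma, with 1 (Igf1) at an unadjusted p under 0.05, where 2.49% of all genes were called. With rmGM-CSF 4 of 7 were called, Hbegf, Pdgfa and Tgfb1 lower and Pdgfb higher in STAT5cKO, where 9.8% of all genes were called. With 4T1 CM 3 of 7 were called, Hbegf, Pdgfa and Tgfb1, all lower in STAT5cKO, where 7.7% of all genes were called. With only the 2 groups compared in the fit, 0 of these 3 calls with 4T1 CM remained, and the calls over all genes went from 1001 to 292. Leaving out 1 mouse at a time left 0 (without mouse 112 or 113) or 1 of the 3, and 335 to 838 calls over all genes.

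Whether the genotype effect itself differed between media was tested as an interaction. Between rmGM-CSF and DMEM it differed for 3 of 7 (Hbegf, Pdgfa and Tgfb1), each more negative with rmGM-CSF, where 3.11% of all genes were called. Of these 3 calls 0 remained without mouse 112 and 1 without mouse 113, where the calls over all genes went from 404 to 175 and 135. Between 4T1 CM and DMEM it was called for 0 of 7 by edgeR and 1 (Pdgfa) by DESeq2, with 1 at an unadjusted p under 0.05, where 1.27% of all genes were called. Between 4T1 CM and rmGM-CSF it differed for Hbegf, 1 of 7 where 1.47% of all genes were called; DESeq2 called 3 and a fit with the replicate block (mouse number) 2.

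**Figure D3:**
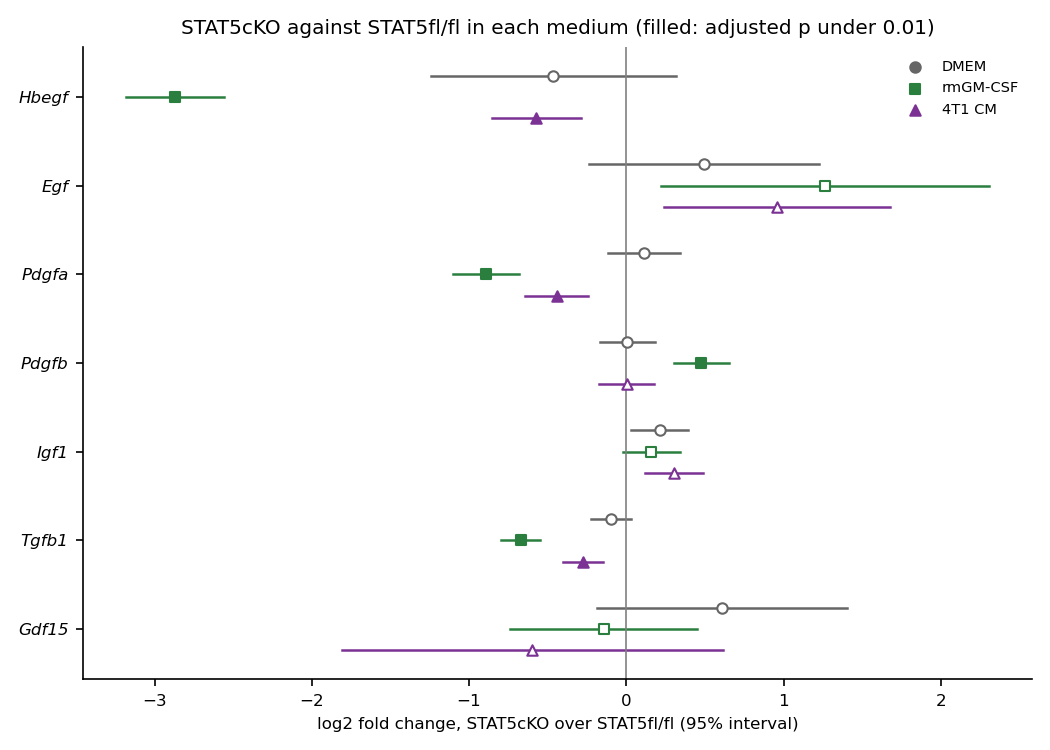
Log2 fold change of STAT5cKO over STAT5fl/fl for the 7 tested growth factors in DMEM (circles), rmGM-CSF (squares) and 4T1 CM (triangles), with 95% intervals and filled points for an adjusted p under 0.01. With rmGM-CSF, Hbegf is at -2.87, Pdgfa at -0.89, Tgfb1 at -0.67 and Pdgfb at 0.48, and no DMEM point is filled.

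Hbegf (ENSMUSG00000024486, chromosome 18 of GRCm38) encodes heparin-binding EGF-like growth factor, a membrane-anchored EGFR and ERBB4 ligand. It was at 1.0 and 0.886 CPM (22 and 21 counts) in the 2 STAT5fl/fl libraries in DMEM, at 26.8 and 26.9 CPM with rmGM-CSF, and at 15.9 and 13.0 CPM with 4T1 CM. In STAT5cKO it was at 0.460, 0.784 and 0.783 CPM in DMEM, at 3.34, 3.53 and 4.28 CPM with rmGM-CSF, and at 8.38, 11.4 and 9.38 CPM with 4T1 CM. The genotypes did not overlap in any medium, and they stood farthest apart with rmGM-CSF; in STAT5fl/fl rmGM-CSF gave the highest level and in STAT5cKO 4T1 CM did.

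In STAT5fl/fl BMDMs Hbegf rose 28.3-fold with rmGM-CSF (log2 4.82 ± 0.21 SE, adjusted p = 6.06e-12) and 15.3-fold with 4T1 CM (log2 3.93 ± 0.22, adjusted p = 1.94e-10). In STAT5cKO BMDMs it rose 5.35-fold with rmGM-CSF (log2 2.42 ± 0.25, adjusted p = 9.23e-07) and 14.2-fold with 4T1 CM (log2 3.82 ± 0.21, adjusted p = 6.35e-11). The response to rmGM-CSF thus differed in size between the genotypes by -2.40 ± 0.41 on the log2 scale (adjusted p = 0.00134), a call that was lost without mouse 112, 113, 115 or 116 (adjusted p = 0.0109 to 0.0228), and Hbegf had 10 to 22 counts per library in DMEM. The response to 4T1 CM differed by -0.11 ± 0.41 (adjusted p = 0.951).

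Between genotypes, Hbegf was 7.30-fold lower in STAT5cKO with rmGM-CSF (log2 -2.87 ± 0.15, adjusted p = 3.54e-10). With 4T1 CM the difference was -0.57 ± 0.13 (adjusted p = 0.00787), and this call was lost in DESeq2 (adjusted p = 0.0102), in the legacy form of edgeR's fit (adjusted p = 0.013), with only the 2 groups in the fit (adjusted p = 0.0648) and without mouse 112 (adjusted p = 0.174), 113 (0.028), 114 (0.0348) or 116 (0.0313). The genotype effect was smaller in size with 4T1 CM than with rmGM-CSF, by 2.30 ± 0.20 on the log2 scale (adjusted p = 3.26e-06), and this remained a call under every alternative run. In STAT5fl/fl, 4T1 CM gave less Hbegf than rmGM-CSF (log2 -0.89 ± 0.13, adjusted p = 4.49e-05; adjusted p = 0.0158 without mouse 113), and in STAT5cKO it gave more (log2 1.4 ± 0.15, adjusted p = 8.87e-07). In bulk RNA, a lower level can be fewer cells that make a transcript or less of it per cell, and these cannot be told apart.

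**Figure D4:**
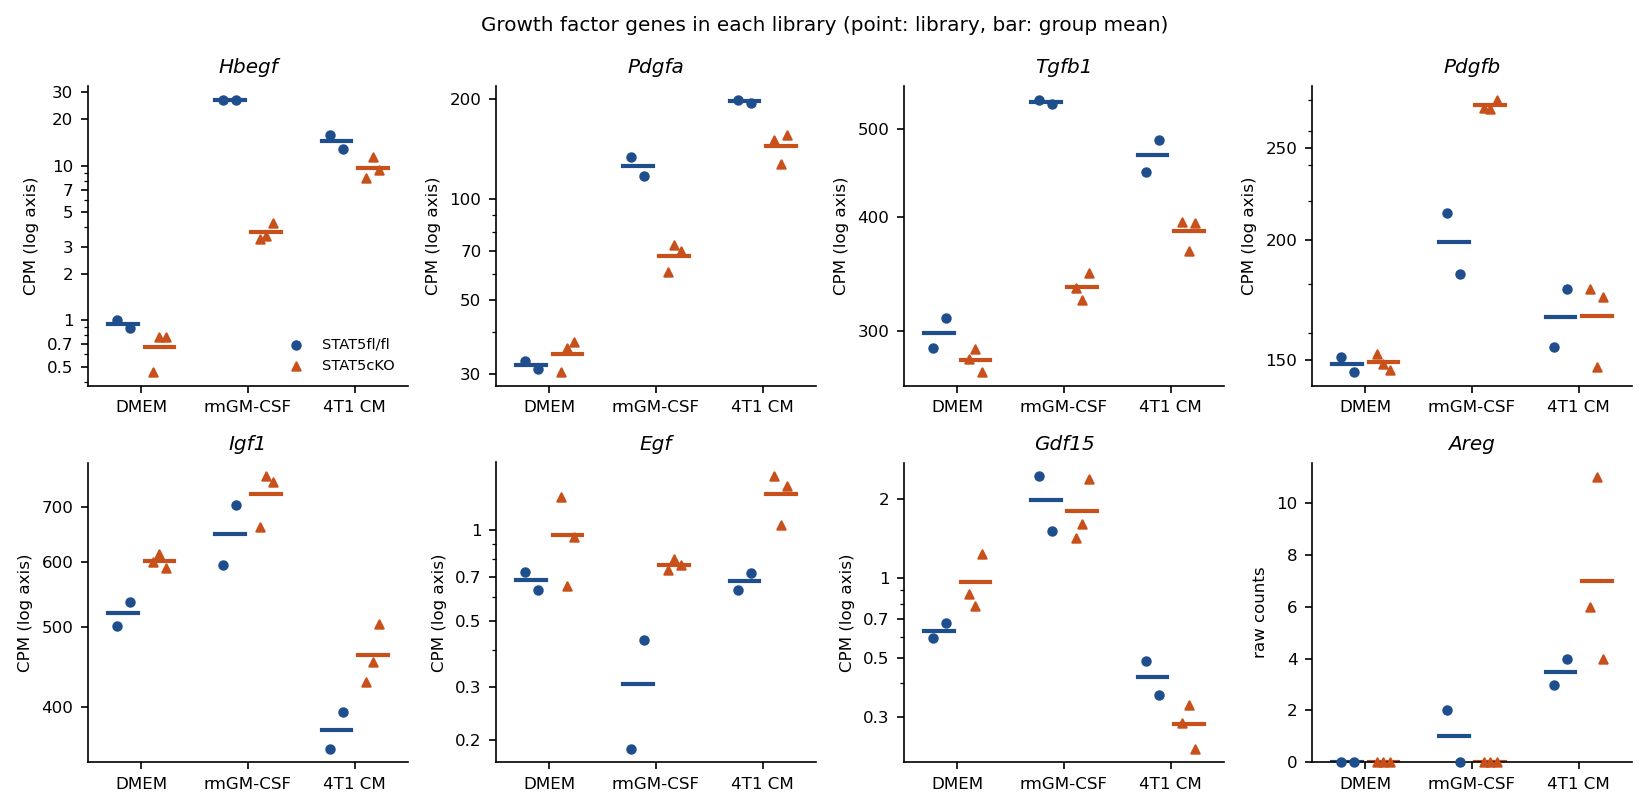
Level of 8 growth factor genes in each of the 15 libraries by medium, in CPM on a log axis (Areg in raw counts on a linear axis), with circles for STAT5fl/fl, triangles for STAT5cKO and bars for group means. With rmGM-CSF the STAT5cKO libraries lie below the STAT5fl/fl libraries for Hbegf, Pdgfa and Tgfb1 and above them for Pdgfb and Egf.

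The other EGFR ligands were near or below the limit of detection. Areg (amphiregulin, chromosome 5, 91139599 to 91148432 on GRCm38) had 0 counts in all 5 DMEM libraries, 2 and 0 counts in STAT5fl/fl and 0 in all 3 STAT5cKO libraries with rmGM-CSF, and 3 and 4 counts in STAT5fl/fl and 6, 11 and 4 in STAT5cKO with 4T1 CM. Every 4T1 CM library therefore held Areg reads and no DMEM library did. Set against a floor of 3 counts over the DMEM group, Areg was 7.50-fold higher with 4T1 CM in STAT5cKO and 2.67-fold higher in STAT5fl/fl. These folds leave out the counting error of the 21 and 7 reads with 4T1 CM, so they are not lower bounds. Areg was too low for the test, although without the low-count filter it was called in STAT5cKO (adjusted p = 0.0014). Ereg (epiregulin), which lies beside Areg on chromosome 5 (91074622 to 91093646), stayed at 3 counts or fewer in every library, and Tgfa (chromosome 6, 86195223 to 86275719) was not detectable at this depth.

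Egf (chromosome 3, 129677565 to 129755316), the founding member of the family, was low but present. It was at 0.728 and 0.633 CPM in STAT5fl/fl in DMEM, at 0.187 and 0.429 CPM with rmGM-CSF and at 0.633 and 0.723 CPM with 4T1 CM. The STAT5cKO libraries were at 1.29, 0.653 and 0.948 CPM in DMEM, at 0.736, 0.803 and 0.767 CPM with rmGM-CSF and at 1.51, 1.04 and 1.4 CPM with 4T1 CM. The genotypes did not overlap with rmGM-CSF or 4T1 CM, where STAT5cKO was the higher, and overlapped in DMEM. No Egf comparison passed the test: STAT5cKO against STAT5fl/fl was 1.26 ± 0.49 on the log2 scale with rmGM-CSF (adjusted p = 0.0937) and 0.96 ± 0.34 with 4T1 CM (adjusted p = 0.0705). The study, from its own analysis of its RNA-seq data, names Egf among factors whose expression increased on deletion of STAT5. It does not name the medium there.

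Pdgfa, Tgfb1 and Gdf15 rose together with rmGM-CSF in STAT5fl/fl BMDMs, and bases upstream of 1 RefSeq start of each are shown for that reason (RefSeq, GRCm38.p6; a 5′ to 3′ run on the gene's own strand, and capitals mark a motif match). They are chr5:138995038-138995194 on the minus strand for Pdgfa, chr7:25686752-25687001 on the plus strand for Tgfb1 and chr8:70632457-70632706 on the minus strand for Gdf15. The RefSeq start used for Pdgfa, at 138994944, lies inside the gene span of the annotation used for counting, so other transcripts of Pdgfa start farther upstream, and the stretch nearest that start, which annotated transcripts cover, was left out.
Pdgfa: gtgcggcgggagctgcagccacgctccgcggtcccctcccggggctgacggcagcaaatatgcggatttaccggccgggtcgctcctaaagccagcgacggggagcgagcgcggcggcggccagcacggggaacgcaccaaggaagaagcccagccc
Tgfb1: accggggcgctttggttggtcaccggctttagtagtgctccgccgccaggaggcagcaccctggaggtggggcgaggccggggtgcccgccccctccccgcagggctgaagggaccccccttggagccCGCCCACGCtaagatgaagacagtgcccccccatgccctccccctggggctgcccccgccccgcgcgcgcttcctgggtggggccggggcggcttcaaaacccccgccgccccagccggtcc
Gdf15: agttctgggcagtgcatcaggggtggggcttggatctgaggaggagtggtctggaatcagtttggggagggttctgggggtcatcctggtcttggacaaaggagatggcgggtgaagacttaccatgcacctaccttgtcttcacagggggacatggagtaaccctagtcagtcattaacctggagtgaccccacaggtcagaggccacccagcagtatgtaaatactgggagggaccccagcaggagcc
For 7 of the 10 genes a RefSeq window of 250 bases before to 50 after the start was searched on both strands for 5 motifs. The STAT5 element TTCNNNGAA was in 8.3% of the 32851 windows of all genes, the AP-1 element TGANTCA in 7.81%, the cAMP response element TGACGTCA in 1.79%, the ATF4 composite element TGATGCAA in 0.895% and the EGR element GCGTGGGCG in 0.612%. Among the growth factors, Tgfb1 had an EGR match 122 bases before its start, read on the other strand and so printed as its reverse complement, Areg a cAMP response element match 61 bases before, and Igf1 an AP-1 match 37 bases before. The windows of Tgfa, Egf, Pdgfa and Gdf15 held none of the 5 motifs, which says only that these letters are not in these windows. The windows of Hbegf, Ereg and Pdgfb were not analysed here.

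Pdgfa (ENSMUSG00000025856, chromosome 5, 138976014 to 138997370, minus strand) encodes the A chain of PDGF, the ligand of PDGF receptor alpha. It was at 32.9 and 31.0 CPM in STAT5fl/fl in DMEM, at 134 and 118 CPM with rmGM-CSF and at 199 and 195 CPM with 4T1 CM. In STAT5cKO, Pdgfa was at 30.4, 35.9 and 37.3 CPM in DMEM, at 60.6, 73.0 and 70.1 CPM with rmGM-CSF and at 151, 128 and 156 CPM with 4T1 CM. Pdgfa stood in the order DMEM, rmGM-CSF, 4T1 CM in each genotype, and the genotypes overlapped in DMEM only.

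In STAT5fl/fl, Pdgfa rose 3.94-fold with rmGM-CSF (log2 1.98 ± 0.12, adjusted p = 3.37e-10) and 6.17-fold with 4T1 CM (log2 2.62 ± 0.12, adjusted p = 7.85e-12). In STAT5cKO the rises were 0.97 ± 0.09 with rmGM-CSF (adjusted p = 3.44e-07) and 2.07 ± 0.09 with 4T1 CM (adjusted p = 5.68e-12) on the log2 scale. Pdgfa was 1.85-fold lower in STAT5cKO with rmGM-CSF (log2 -0.89 ± 0.10, adjusted p = 4.77e-06). The response to rmGM-CSF differed between genotypes by -1.01 ± 0.15 (adjusted p = 3.28e-04; 0.0175 without mouse 112 and 0.0116 without mouse 113).

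With 4T1 CM, Pdgfa was -0.44 ± 0.10 on the log2 scale in STAT5cKO against STAT5fl/fl (adjusted p = 0.00429), a call lost with only the 2 groups in the fit (adjusted p = 0.0187) and without mouse 112 (0.0467), 113 (0.05) or 115 (0.0219). Against rmGM-CSF, 4T1 CM gave more Pdgfa in both genotypes, by 0.65 ± 0.11 in STAT5fl/fl (adjusted p = 1.08e-04, and 0.0215 without mouse 113) and by 1.09 ± 0.09 in STAT5cKO (adjusted p = 2.34e-08). An antisense gene, 6330403L08Rik, shares 813 exon bases with Pdgfa (26.1% of its exon length) and had 393 to 1123 counts. The libraries were stranded and the counting used strand, so the 2 were counted apart.

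Pdgfb (chromosome 15, 79995874 to 80014977) encodes the B chain, which binds both PDGF receptors. It was at 151 and 146 CPM in STAT5fl/fl in DMEM, at 214 and 184 CPM with rmGM-CSF and at 155 and 178 CPM with 4T1 CM. In STAT5cKO it was at 152, 149 and 146 CPM in DMEM, at 275, 274 and 281 CPM with rmGM-CSF and at 178, 147 and 174 CPM with 4T1 CM. Pdgfb differed from Pdgfa in both respects: it was highest with rmGM-CSF, not 4T1 CM, and with rmGM-CSF all 3 STAT5cKO libraries lay above both STAT5fl/fl libraries. In STAT5fl/fl, however, edgeR's test of 4T1 CM against rmGM-CSF missed the threshold for Pdgfb (log2 -0.26 ± 0.09, adjusted p = 0.0285). That log2 value ranged over -0.465 to -0.054 under the 11 alternatives.

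Pdgfb rose with rmGM-CSF by 0.42 ± 0.09 on the log2 scale in STAT5fl/fl (adjusted p = 0.00117, and 0.045 without mouse 112) and by 0.89 ± 0.07 in STAT5cKO (adjusted p = 4.46e-08). It was 0.48 ± 0.08 higher in STAT5cKO with rmGM-CSF (adjusted p = 5.33e-04, and 0.0277 without mouse 113), against 0.01 ± 0.08 in DMEM and 0.00 ± 0.08 with 4T1 CM. The test of the difference between rmGM-CSF and DMEM missed the threshold at 0.47 ± 0.12 (adjusted p = 0.0232), though DESeq2 (0.00355) and the fit of only the groups compared (0.00285) called it. With 4T1 CM, Pdgfb was 0.16 on the log2 scale over DMEM in both genotypes (adjusted p = 0.143 and 0.0819), and in STAT5cKO it fell by 0.73 against rmGM-CSF (adjusted p = 3.2e-07).

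Tgfb1 (ENSMUSG00000002603, chromosome 7, 25687002 to 25705077, plus strand), which encodes a cytokine that restrains inflammation and promotes matrix deposition, had the highest level per length of the growth factors in 4 of the 6 groups. It was at 287 and 310 CPM in STAT5fl/fl in DMEM, at 538 and 532 CPM with rmGM-CSF and at 448 and 487 CPM with 4T1 CM. The STAT5cKO libraries were at 280, 287 and 271 CPM in DMEM, at 334, 325 and 348 CPM with rmGM-CSF and at 395, 368 and 395 CPM with 4T1 CM. The highest values were with rmGM-CSF in STAT5fl/fl and with 4T1 CM in STAT5cKO, and the genotypes did not overlap with either. In STAT5fl/fl, however, the test of 4T1 CM against rmGM-CSF missed the threshold for Tgfb1 (log2 -0.19 ± 0.07, adjusted p = 0.0251), and none of the 11 alternatives called it.

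Tgfb1 rose with rmGM-CSF by 0.84 ± 0.07 on the log2 scale in STAT5fl/fl (adjusted p = 2.06e-08) and by 0.27 ± 0.05 in STAT5cKO (adjusted p = 0.00105, and 0.0133 without mouse 114 and 0.0317 without mouse 116). With 4T1 CM it rose by 0.64 ± 0.07 in STAT5fl/fl (adjusted p = 3.82e-07) and 0.47 ± 0.05 in STAT5cKO (adjusted p = 1.42e-06). With rmGM-CSF it was 1.59-fold lower in STAT5cKO (log2 -0.67 ± 0.06, adjusted p = 3.31e-07), and the response to rmGM-CSF differed between genotypes by -0.57 ± 0.09 (adjusted p = 3.98e-04, and 0.0189 without mouse 112).

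With 4T1 CM, Tgfb1 was -0.28 ± 0.06 in STAT5cKO against STAT5fl/fl (adjusted p = 0.00456), lost with only the 2 groups in the fit (adjusted p = 0.0584) and without any 1 mouse (adjusted p = 0.0122 without mouse 112 to 0.109 without mouse 113). The genotype effect on Tgfb1 differed between 4T1 CM and rmGM-CSF by 0.40 ± 0.09, which missed the threshold (adjusted p = 0.0145) and passed it with the replicate block (adjusted p = 0.00941) and in DESeq2 (adjusted p = 4.3e-04). In STAT5cKO, Tgfb1 was 0.20 ± 0.05 higher with 4T1 CM than with rmGM-CSF (adjusted p = 0.00565), and this call was lost without the low-count filter (0.0111), with only the groups compared (0.0127) and without mouse 114 (0.061), 115 (0.0245) or 116 (0.0295).

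Igf1 (chromosome 10, 87858265 to 87937042), a growth and survival factor that tissue-repair macrophages make, had the highest mean level per length of the growth factors in STAT5cKO in DMEM and with rmGM-CSF, in the latter overlapping Tgfb1. It was at 502 and 537 CPM in STAT5fl/fl in DMEM, at 595 and 704 CPM with rmGM-CSF and at 356 and 394 CPM with 4T1 CM. In STAT5cKO, Igf1 was at 601, 614 and 591 CPM in DMEM, at 663, 764 and 751 CPM with rmGM-CSF and at 429, 453 and 505 CPM with 4T1 CM. In each genotype 4T1 CM gave the lowest level, and the genotypes overlapped with rmGM-CSF only.

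Igf1 fell with 4T1 CM, by 0.47 on the log2 scale in STAT5fl/fl (SE 0.09, adjusted p = 4.96e-04, and 0.0111 without mouse 112) and by 0.38 in STAT5cKO (SE 0.08, adjusted p = 5.17e-04). The values with rmGM-CSF missed the threshold at 0.32 ± 0.09 in STAT5fl/fl (adjusted p = 0.0112) and 0.27 ± 0.08 in STAT5cKO (adjusted p = 0.0107), and passed it with the replicate block (adjusted p = 0.00159 and 0.00148). In both genotypes they also passed it in DESeq2, without the low-count filter and with only the groups compared, but not with TMM or the legacy form. Against rmGM-CSF, Igf1 fell by 0.79 in STAT5fl/fl and by 0.65 in STAT5cKO with 4T1 CM (adjusted p = 3.3e-06 and 2.39e-06). Igf1 in STAT5cKO against STAT5fl/fl was 0.21 on the log2 scale in DMEM (adjusted p = 0.158), 0.16 with rmGM-CSF (0.235) and 0.30 with 4T1 CM (0.0256), and the last was called by DESeq2 (0.00624) and without the low-count filter (0.00931).

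Gdf15 (chromosome 8, 70629393 to 70632456, minus strand) encodes a stress-induced factor whose receptor, GFRAL, is known from the hindbrain. It was at 0.592 and 0.675 CPM in STAT5fl/fl in DMEM, at 2.43 and 1.5 CPM with rmGM-CSF and at 0.487 and 0.361 CPM with 4T1 CM. In STAT5cKO it was at 0.874, 0.784 and 1.24 CPM in DMEM, at 1.42, 1.61 and 2.36 CPM with rmGM-CSF and at 0.284, 0.331 and 0.227 CPM with 4T1 CM. In both genotypes rmGM-CSF gave the highest and 4T1 CM the lowest levels, with no overlap between those media.

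Gdf15 rose with rmGM-CSF in STAT5fl/fl by 1.6 ± 0.37 on the log2 scale (adjusted p = 0.00228), and this call was lost without mouse 112 (1.15, adjusted p = 0.138) or 113 (2.03, adjusted p = 0.0122). In STAT5cKO the value was 0.85 ± 0.27 (adjusted p = 0.0237), and the test of the difference between genotypes gave -0.75 ± 0.47 (adjusted p = 0.554). In 4T1 CM against rmGM-CSF it fell by 2.17 in STAT5fl/fl (adjusted p = 4.88e-04, and 0.0281 without mouse 112) and by 2.62 in STAT5cKO (adjusted p = 1.82e-05). Against DMEM it fell with 4T1 CM by 1.77 in STAT5cKO (adjusted p = 0.0017, and 0.0109 without mouse 114 and 0.0298 without mouse 116), beside -0.57 ± 0.51 in STAT5fl/fl (adjusted p = 0.383). No genotype comparison of Gdf15 passed the test.

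The receptors, processing enzymes, other ligands and feedback genes of these pathways were read from a list of 68 genes, of which 48 were tested. Against DMEM, rmGM-CSF changed 21 of the 48 in STAT5fl/fl (12 higher and 9 lower, 43.8% beside 28.5% of all tested genes) and 13 in STAT5cKO (10 higher and 3 lower, 27.1% beside 23.5%). With 4T1 CM, 26 changed in STAT5fl/fl (20 higher and 6 lower, 54.2% beside 37.4%) and 29 in STAT5cKO (21 higher and 8 lower, 60.4% beside 37.6%). Between genotypes, 3 were called in DMEM, all lower in STAT5cKO (6.25% beside 2.49%), 14 with rmGM-CSF (4 higher and 10 lower, 29.2% beside 9.8%) and 9 with 4T1 CM (6 higher and 3 lower, 18.8% beside 7.7%). The genotype effect differed from that in DMEM for 8 of the 48 with rmGM-CSF (16.7% beside 3.11%) and 4 with 4T1 CM (8.33% beside 1.27%), and differed between 4T1 CM and rmGM-CSF for 3 (6.25% beside 1.47%). These shares are descriptions, with no test of the list.

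In the EGFR family, Erbb2, Erbb4, Btc and Epgn did not pass the filter on low counts. Egfr (at 1.70 to 2.80 CPM) and Erbb3 (5.92 to 11.9 CPM), 2 receptors named after their values were seen, were called in none of the 12 comparisons. Nrg1, which encodes the ERBB3 and ERBB4 ligand neuregulin 1, was at 3 and 0 counts in STAT5fl/fl in DMEM, 97 and 92 with rmGM-CSF and 330 and 338 with 4T1 CM. The STAT5cKO counts of Nrg1 were 11, 3 and 5 in DMEM, 11, 11 and 7 with rmGM-CSF and 255, 403 and 252 with 4T1 CM, so the genotypes stood apart with rmGM-CSF and overlapped with 4T1 CM. Nrg1 rose in STAT5fl/fl 83.0-fold with rmGM-CSF (counting interval 28.0 to 406) and 255-fold with 4T1 CM (86.8 to 1239), and these intervals cover counting error only. With rmGM-CSF it was lower in STAT5cKO (log2 -3.44 ± 0.41, adjusted p = 7.9e-06). Its genotype effect differed by 3.20 ± 0.46 between 4T1 CM and rmGM-CSF (adjusted p = 3.26e-04, and 0.0157 without mouse 112).

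Errfi1, which encodes the EGFR feedback inhibitor MIG6, was at 8.79 and 8.90 CPM in STAT5fl/fl in DMEM, 55.8 and 54.4 with rmGM-CSF and 271 and 210 with 4T1 CM. In STAT5cKO it was at 8.88, 8.01 and 7.33 CPM, 24.3, 28.8 and 23.3 CPM, and 331, 344 and 273 CPM in the same order of media. With rmGM-CSF every STAT5cKO library lay below both STAT5fl/fl libraries, and with 4T1 CM every one lay above. Errfi1 was -1.11 ± 0.12 on the log2 scale in STAT5cKO with rmGM-CSF (adjusted p = 4.1e-06), and its genotype effect differed between 4T1 CM and rmGM-CSF by 1.5 ± 0.16 (adjusted p = 2.32e-05). Rhbdf2, which encodes the ADAM17 partner iRhom2, rose with rmGM-CSF by 1.56 ± 0.07 in STAT5fl/fl and 1.14 ± 0.05 in STAT5cKO (adjusted p = 5.01e-12 and 2.76e-11), and with 4T1 CM by 1.14 ± 0.07 and 1.23 ± 0.05 (adjusted p = 2.38e-10 and 3.59e-12). Adam17 was lower with 4T1 CM than with rmGM-CSF in STAT5fl/fl (log2 -1.11 ± 0.06, adjusted p = 4.01e-10).

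**Figure D5:**
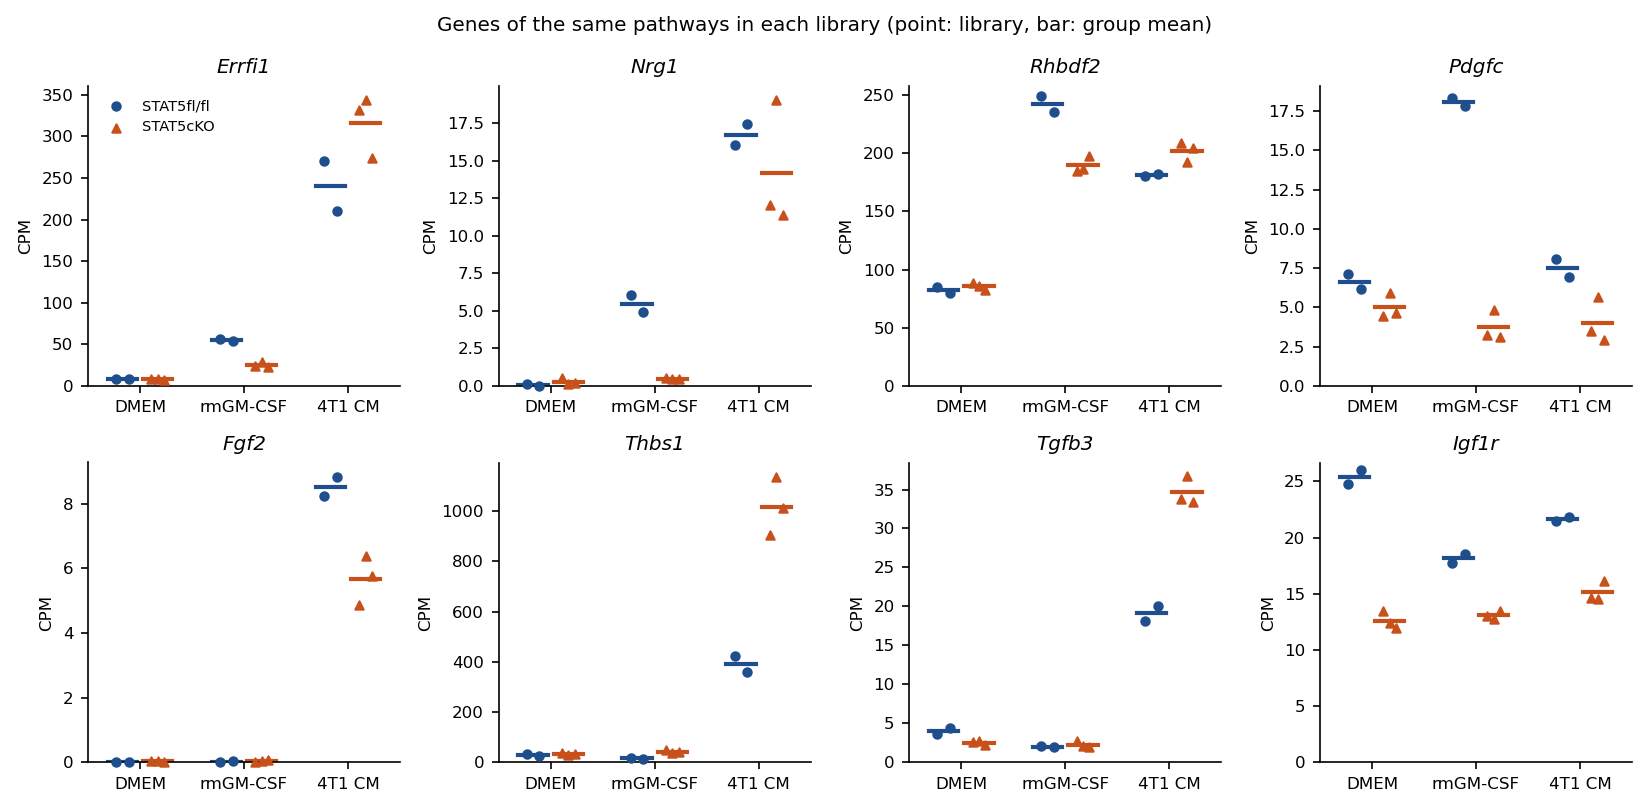
Level (CPM, linear axis from 0) of 8 genes of the same pathways in each library by medium, with circles for STAT5fl/fl, triangles for STAT5cKO and bars for group means. Nrg1, Errfi1 and Pdgfc are lower in STAT5cKO with rmGM-CSF, Thbs1 and Tgfb3 are higher in STAT5cKO with 4T1 CM, and Igf1r is lower in STAT5cKO in all 3 media.

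Pdgfc, a PDGF that needs proteolytic activation, was at 7.10 and 6.16 CPM in STAT5fl/fl in DMEM, 18.3 and 17.8 with rmGM-CSF and 8.08 and 6.92 with 4T1 CM, while no STAT5cKO library in any medium exceeded 5.92 CPM. Pdgfc rose with rmGM-CSF in STAT5fl/fl (log2 1.45 ± 0.20, adjusted p = 2.09e-05) and was -2.25 ± 0.20 in STAT5cKO against STAT5fl/fl with rmGM-CSF (adjusted p = 3.95e-07). Its genotype effect differed between rmGM-CSF and DMEM by -1.85 ± 0.30 (adjusted p = 8.18e-04, 0.0174 without mouse 112 and 0.0361 without mouse 113). Igf1r, the IGF-1 receptor, was at 24.8 and 26.0 CPM in STAT5fl/fl and 13.5, 12.4 and 12.0 CPM in STAT5cKO in DMEM, a log2 difference of -1.01 ± 0.08 (adjusted p = 2.16e-06). Igf1r was the one called gene of the list with a log2 difference of at least 1 between genotypes in DMEM. Fgf2, basic fibroblast growth factor, had at most 1 count in every DMEM and rmGM-CSF library. With 4T1 CM it had 169 and 171 counts in STAT5fl/fl and 103, 135 and 127 counts in STAT5cKO. Set against a floor of 3 counts in DMEM, Fgf2 was 130-fold higher with 4T1 CM in STAT5fl/fl, which leaves out the counting error of the 4T1 CM reads.

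In the TGF-beta group, Thbs1 encodes thrombospondin 1, an activator of latent TGF-beta. It was at 31.7 and 26.2 CPM in STAT5fl/fl in DMEM, 19.2 and 13.4 with rmGM-CSF and 422 and 361 with 4T1 CM, and in STAT5cKO at 37.7, 29.7 and 34.5 CPM, 48.9, 36.1 and 39.5 CPM, and 905, 1137 and 1012 CPM in that order. Thbs1 was higher in STAT5cKO by 1.36 ± 0.17 on the log2 scale with rmGM-CSF (adjusted p = 2.05e-05) and 1.38 ± 0.14 with 4T1 CM (adjusted p = 3.34e-06), the opposite direction to Tgfb1. Both differed from the effect in DMEM, by 1.12 ± 0.23 (adjusted p = 0.00531) and 1.15 ± 0.20 (adjusted p = 0.00368), the first lost without mouse 112 (0.0202), 113 (0.0653) or 116 (0.0222) and the second without mouse 112 (0.0305), 113 (0.0344), 115 (0.0155) or 116 (0.0211).

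Tgfb3 was at 18.2 and 20.1 CPM in STAT5fl/fl and 33.8, 36.7 and 33.4 CPM in STAT5cKO with 4T1 CM, and its genotype effect differed from that in DMEM by 1.57 ± 0.20 (adjusted p = 2.37e-04, and 0.0213 without mouse 113). The 1.57 is the genotype effect on Tgfb3 with 4T1 CM less that in DMEM, and is larger than the effect with 4T1 CM alone. Smad7, an inhibitor of TGF-beta signalling, was higher with 4T1 CM than with rmGM-CSF by 3.16 ± 0.18 in STAT5fl/fl and 3.0 ± 0.13 in STAT5cKO (adjusted p = 3.65e-10 and 4.86e-12). Skil, which encodes the SMAD repressor SnoN, rose with rmGM-CSF in STAT5fl/fl by 1.27 ± 0.09 (adjusted p = 3.64e-09). Lrrc32, which encodes the latent TGF-beta carrier GARP, rose with rmGM-CSF in STAT5cKO by 1.63 ± 0.36 (adjusted p = 0.00203, and 0.0306 without mouse 114).

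Likeness of pattern was read as Pearson's r of log2 CPM over the 15 libraries, which share mice and media, and is a description without a test. The genes most like Hbegf were Zyx (r = 0.99), Prr5l (0.981) and Cd44 (0.98). Those most like Pdgfa were Map2k3 (0.992), Emilin2 (0.986) and Sphk1 (0.984), and those most like Tgfb1 were Vkorc1l1 (0.977), Scimp (0.972) and Pik3cg (0.971). Igf1 was most like Adam17 (0.957), Tmem183a (0.952) and Vps35 (0.946), Pdgfb most like Cdc42ep4 (0.96), Spryd7 (0.946) and Tagap (0.93), Gdf15 most like Rnf6 (0.95), Usp10 (0.949) and E130309D02Rik (0.947), and Egf most like Tnnc1 (0.933), Cpt1c (0.895) and Gtf3c3 (0.89). High values of r were common over all tested genes. It exceeded 0.9 for 190 genes with Hbegf, 334 with Pdgfa, 107 with Tgfb1 and 87 with Gdf15. With Igf1 there were 73 such genes, with Pdgfb 15 and with Egf 1. Among the growth factors, Hbegf was most alike to Tgfb1 (0.947) and Pdgfa (0.933), Pdgfa and Tgfb1 stood at 0.859, and Igf1 and Gdf15 at 0.81.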

How the data were processed

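RNA-seq libraries of BMDMs were analysed as the authors deposited them, as raw counts of reads per gene. Per the labels and the study's methods, the authors trimmed reads with Trimmomatic 0.33, aligned them to GRCm38 with HISAT2 2.1.0 and counted them with featureCounts 1.6.2, whose header shows properly paired, reverse-stranded counting at a mapping quality of at least 10. All 15 columns matched a sample, and 55144 of 55385 IDs matched a symbol. Counts were scaled by relative log expression, genes over 1 CPM in at least 2 libraries were kept, and 6 group means were fitted to all libraries with edgeR 4.0.16 (R 4.3.3) quasi-likelihood, with Benjamini-Hochberg adjustment over all 13005 genes and a threshold of 0.01. Each SE given is the absolute log2 fold change divided by the square root of the quasi-likelihood F statistic. It is thus an approximation taken from the test, and the 95% intervals of log2 fold changes rest on it. The code was tested on simulated data. Alternatives were TMM, no low-count filter, DESeq2 1.42.0, only the groups compared, the mouse as a replicate block or, between genotypes, as a random effect in limma 3.58.1, each mouse left out, and, chosen after seeing the data, the legacy form of the quasi-likelihood fit. Mouse numbers in the titles pair the media, and the pairing rests on the titles. In STAT5cKO, the deviations of same-mouse libraries from their group means correlated at a mean r of 0.157 (over 0.1 in 7 of 9 pairs). In STAT5fl/fl the mean r was 0.142. With 2 libraries per STAT5fl/fl group the deviations are equal and opposite, so both mice give the same values (0.0926, 0.121 and 0.213). The different-mouse values in STAT5fl/fl are the negatives of these, so they add no separate check of the pairing. Named were all 10 growth factors, Stat5a and Stat5b, the called pathway genes with a log2 change of at least 1 (at most 5 per comparison, by adjusted p), and the 3 genes most like each tested growth factor (log2 CPM, prior count 2). The growth factors and lists were chosen with earlier results of these data known. Intervals on count ratios are exact binomial at 95% and cover counting error only, and a gene at 0 was set to a floor of 3 counts.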

Additional observations from a re-analysis of the deposited data

Results flagged for a closer look

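The following 10 cases passed a test of whether the genotype effect differed between media (edgeR interaction, adjusted p under 0.01). They are all such calls among the growth factors, and those pathway gene calls with a log2 value of at least 1 in size. Without that cut, 8 of the 48 tested pathway genes were called for rmGM-CSF against DMEM, beside 3.11% of all genes. The number was 4 for 4T1 CM against DMEM (beside 1.27%) and 3 for 4T1 CM against rmGM-CSF (beside 1.47%). Each of the 10 is given as the log2 change in the effect of STAT5 loss. Between rmGM-CSF and DMEM it was -2.40 for Hbegf, -1.01 for Pdgfa, -0.57 for Tgfb1 and -1.85 for Pdgfc, so these were lower in STAT5cKO with rmGM-CSF relative to DMEM, and 1.12 for Thbs1, in the other direction. Between 4T1 CM and DMEM it was 1.57 for Tgfb3 and 1.15 for Thbs1. Between 4T1 CM and rmGM-CSF it was 2.30 for Hbegf, 1.5 for Errfi1 and 3.20 for Nrg1. With 1 mouse left out, the 4T1 CM and rmGM-CSF differences of Hbegf and Errfi1 stayed called whichever mouse it was, and each of the other 8 was lost at least once. Between rmGM-CSF and DMEM, Hbegf was lost without mouse 112, 113, 115 or 116, Pdgfa without 112 or 113, Tgfb1 without 112, Pdgfc without 112 or 113, and Thbs1 without 112, 113 or 116. Between 4T1 CM and DMEM, Tgfb3 was lost without 113 and Thbs1 without 112, 113, 115 or 116, and Nrg1 between 4T1 CM and rmGM-CSF was lost without 112. With 2 and 3 mice per genotype no group was large enough to look for a single library far from the others.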

How the results depend on the processing

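Over 924 member results under the alternatives, 849 kept their direction and their side of the threshold, 41 lost their call, 19 gained one and 15 changed sign, none of these 15 a call in the fit reported. Of 440 results for the named pathway genes, 428 kept both and 12 lost their call. The count of growth factors called between genotypes with 4T1 CM was 3 and became 0 with only the groups compared and 0 to 1 with a mouse left out. With a mouse left out, the count for rmGM-CSF against DMEM in STAT5fl/fl (5) ranged over 3 to 6, that for 4T1 CM against rmGM-CSF in STAT5fl/fl (4) over 2 to 4, and that for the genotype effect between rmGM-CSF and DMEM (3) over 0 to 3. Calls over all tested genes also fell in every fit with a mouse left out for these comparisons, so the loss was not particular to the growth factors. For the genotype effect between 4T1 CM and DMEM the count was 0 and became 1 in DESeq2, and between 4T1 CM and rmGM-CSF it was 1 and became 3 in DESeq2 and 2 with the replicate block. The replicate block, DESeq2, the fit without the low-count filter and that of only the groups compared each added calls for Igf1 with rmGM-CSF in both genotypes. TMM and the legacy form did not.

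The changes of sign were all in values close to 0 or with wide errors, and the ranges that follow are over the fits with 1 mouse left out. For Pdgfb, the genotype effect in DMEM ranged over -0.0182 to 0.0355, that with 4T1 CM over -0.0929 to 0.104 (-0.00524 with only the groups compared), and its difference between 4T1 CM and DMEM over -0.128 to 0.122. For Egf, 4T1 CM against DMEM in STAT5fl/fl ranged over -0.201 to 0.188 (0.000307 with the replicate block), and the genotype effect between 4T1 CM and rmGM-CSF over -0.957 to 0.032. For Igf1, the genotype effect between rmGM-CSF and DMEM ranged over -0.12 to 0.0266. For Hbegf, that between 4T1 CM and DMEM ranged over -0.211 to 0.0404, and for Gdf15 the genotype effect with rmGM-CSF over -0.47 to 0.22. The cause was not tested. With a STAT5fl/fl mouse left out, the lone library per medium was assumed to vary like the other groups. Depth limits Areg, Ereg, Tgfa, Egf and Gdf15 most, and Hbegf in DMEM.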
